A study of Mus musculus with 14 samples.

Results

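The 10 genes described here serve antigen presentation through MHC class II or mark Langerhans cells and other dendritic cells. They were found by gene symbol in the deposited counts and are 10 of 55291 genes listed. H2-Aa, H2-Ab1 and H2-Eb1 encode chains of the class II molecules, Cd74 encodes the invariant chain, H2-DMa encodes a chain of the peptide exchange factor H2-DM, and Ciita encodes the transcriptional coactivator of the class II genes. Cd207 encodes langerin, Itgax encodes CD11c, Epcam encodes an adhesion molecule of both keratinocytes and Langerhans cells, and Flt3 encodes the receptor for a dendritic cell growth factor. Bulk RNA-Seq was performed on 14 esophageal libraries from 9 C57BL/6 mice with no transgene or treatment named in the labels. Peeled epithelium was sequenced from 5 aged mice (O1, O2, O3, OF5 and OM8) and 4 young mice (Y1, Y3, YF5 and YM4), and stroma from aged mice O1, O2 and O3 and young mice Y1 and Y3. Per the labels, aged mice were at least 18 months old and young mice at most 4 months old, and sex was given only for OM8, YF5 and YM4. Both layers were bulk tissue, so fewer cells of a type and less RNA per cell cannot be told apart.

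Class II molecules present peptides from the endocytic pathway to CD4 T cells. The alpha and beta chains assemble with the invariant chain, which is cleaved in endosomes, and H2-DM then exchanges its remnant for peptide. Expression is driven by CIITA, which binds no DNA itself but docks on factors that sit on the X and Y boxes upstream of class II genes. Langerhans cells are the antigen-presenting cells of stratified squamous epithelia and hold class II molecules, langerin and EpCAM, whereas dendritic cells, macrophages and B cells present antigen in the underlying tissue.

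The sequence upstream of the start was available for 7 of the 10 genes (RefSeq, GRCm38.p6), and 4 of these are shown to set 2 class II genes beside 2 genes of the Langerhans cell surface. H2-Ab1, Cd74 and Ciita had no entry. Each line gives the 250 bases before the start of the gene, 5′ to 3′ on the strand of the gene. Capitals mark the letters GATTGG (a Y box core), AACNGATG (part of an X box) or TGACGTCA (a cyclic AMP response element, as found at X boxes), searched on both strands and chosen with the sequences in view.
H2-Aa, chr17:34287824-34288073, minus strand: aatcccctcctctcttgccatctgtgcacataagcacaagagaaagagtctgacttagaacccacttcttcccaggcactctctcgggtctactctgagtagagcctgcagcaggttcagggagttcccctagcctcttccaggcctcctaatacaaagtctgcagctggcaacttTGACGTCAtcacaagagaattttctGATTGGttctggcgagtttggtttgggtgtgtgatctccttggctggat
H2-Eb1, chr17:34305617-34305866, plus strand: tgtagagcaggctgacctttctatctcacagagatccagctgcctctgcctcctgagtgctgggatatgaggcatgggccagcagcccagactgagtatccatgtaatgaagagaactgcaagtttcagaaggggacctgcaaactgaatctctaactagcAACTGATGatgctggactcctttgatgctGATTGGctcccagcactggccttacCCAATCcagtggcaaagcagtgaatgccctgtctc
Cd207, chr6:83677858-83678107, minus strand: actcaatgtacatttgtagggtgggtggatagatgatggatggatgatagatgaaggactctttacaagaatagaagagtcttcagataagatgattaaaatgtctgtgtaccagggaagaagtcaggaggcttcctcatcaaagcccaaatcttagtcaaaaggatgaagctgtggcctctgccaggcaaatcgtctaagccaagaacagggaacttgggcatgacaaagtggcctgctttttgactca
Epcam, chr17:87635729-87635978, plus strand: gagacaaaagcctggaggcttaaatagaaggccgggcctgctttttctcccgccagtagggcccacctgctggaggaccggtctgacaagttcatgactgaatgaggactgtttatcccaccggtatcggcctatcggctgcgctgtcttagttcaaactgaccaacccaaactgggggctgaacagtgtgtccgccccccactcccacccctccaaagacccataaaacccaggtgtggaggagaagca
The H2-Aa window held GATTGG and TGACGTCA, and the H2-Eb1 window held AACNGATG and GATTGG, the latter on both strands. No window of Cd207, Epcam, Itgax or Flt3 held any of the 3 motifs. Of 32851 windows of the same length, GATTGG was found in 14.6%, AACNGATG in 1.98%, TGACGTCA in 1.55%, and GATTGG together with either of the others in 0.511%. H2-Eb2, H2-DMb1 and H2-DMb2, other class II genes, held AACNGATG with GATTGG, and H2-Oa and H2-Ob held GATTGG alone. For H2-DMa there were 2 starts, both inside the span given for the gene below, and their windows are not shown. The window ending at 34122831 held none of the 3 motifs, and the window ending at 34125517 held GATTGG alone.

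Libraries differed in depth and makeup. Total counts ranged from 8217516 to 21867101. In the 4 mice with epithelium only (OF5, OM8, YF5 and YM4), the ribosomal RNA gene CT010467.1 took 63.9% to 73.9% of counts, against 10.4% to 23.3% in the other epithelial libraries and 1.47% to 1.88% in stroma. A count of 3 therefore equalled 0.707 to 1.25 normalized counts in these 4 libraries and 0.0872 to 0.175 in the other 10. Normalized counts are CPM values after TMM scaling of library sizes. The labelled layers were checked by keratinocyte markers (Krt4, Krt5, Krt13, Krt14, Krt15, Krtdap and Trp63), which summed to 17001 to 54042 normalized counts in epithelial and 45.8 to 447 in stromal libraries, and by skeletal muscle markers, which summed to 8.96 to 1249 and 30823 to 58030. The stroma of mouse O3 stood apart by its lymphoid markers, with summed plasma cell markers of 2139 normalized counts against 34.8 to 242 in the other 4 stromal libraries.

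Most of these genes were expressed at lower levels in epithelium than in stroma. Of the 10 genes, 8 passed the filter on low counts, of which 7 were lower and 1, Epcam, was higher in epithelium (edgeR's quasi-likelihood test, adjusted p under 0.05). Among all 16791 genes tested, 30.1% were called lower and 26.1% higher. The median log2 fold change was -1.79 over the 8 genes and -0.05 over all genes tested. The groups did not overlap for H2-DMa and Itgax among the lower genes, while 16.9% of all genes tested were lower without overlap. The plot of normalized counts by library shows each gene in the 4 groups.

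**Figure D1:**
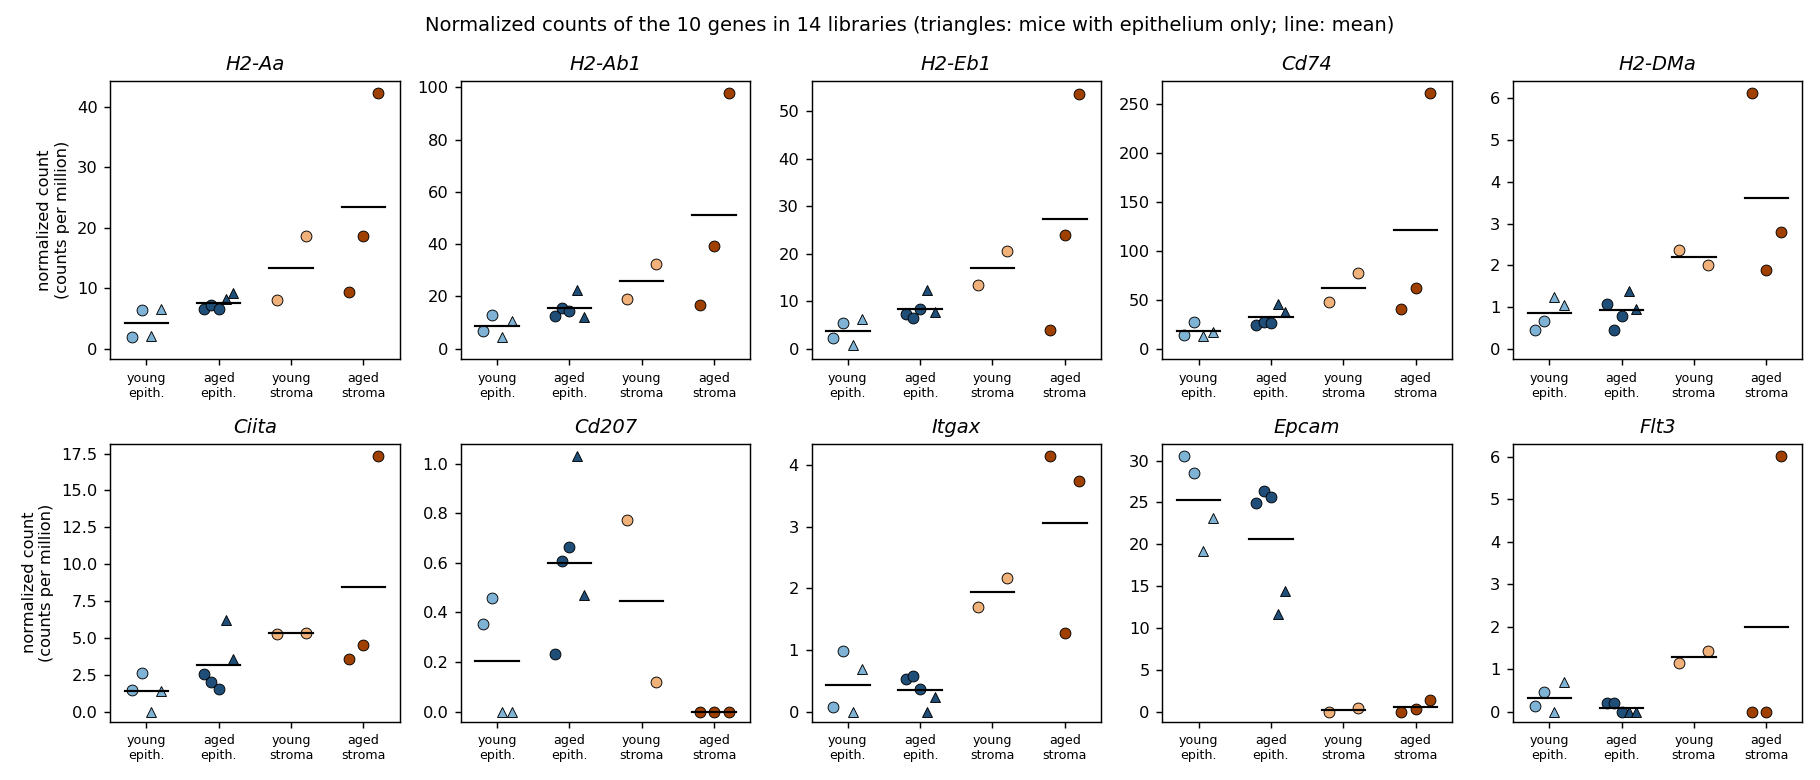
Normalized counts (CPM after TMM scaling, y axes) of the 10 genes in young and aged epithelium and stroma; each point is 1 library, triangles are the mice with epithelium only and lines are group means. For Cd74 the stroma of mouse O3 reached 261 against 40.3 to 77.1 in the other stromal libraries, and Epcam was 11.7 to 30.5 in epithelium and at most 1.34 in stroma.

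H2-Ab1 (ENSMUSG00000073421.6, chr17:34257689-34269419, GRCm38, plus strand) encodes the beta chain of I-A. It was at 12.4, 15.5, 14.6, 22.4 and 12.3 normalized counts in aged epithelium, 6.87, 13.1, 4.58 and 10.7 in young epithelium, 16.9, 39.4 and 97.7 in aged stroma, and 19.2 and 32.3 in young stroma. The stromal libraries were higher, with the stroma of O3 far above the rest and OF5 epithelium reaching into the stromal range. Stroma had a mean of 41.1 ± 33 (SD, n = 5), against 12.5 ± 5.12 for the epithelial libraries (SD, n = 9). The fitted log2 fold change was -1.71 (SE 0.37, adjusted p = 0.000918, edgeR).

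H2-Aa (ENSMUSG00000036594.15, chr17:34282744-34287823, minus strand) encodes the alpha chain that pairs with it. It was at 6.6, 7.24, 6.63, 8.27 and 9.19 normalized counts in aged epithelium, 1.95, 6.35, 2.08 and 6.58 in young epithelium, 9.33, 18.7 and 42.2 in aged stroma, and 8 and 18.6 in young stroma. Epithelium was lower than stroma in each of the 5 mice with both layers, but the lowest stromal library, Y1, lay below the aged epithelium of OF5 and OM8. The log2 fold change was -1.67 (SE 0.37, adjusted p = 0.000895, edgeR). Counts of H2-Aa per count of H2-Ab1 had a median of 0.467 in epithelium (range 0.284 to 0.75) and 0.475 in stroma (range 0.416 to 0.574), so the ratio of the I-A chains overlapped between layers.

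H2-Eb1 (ENSMUSG00000060586.11, chr17:34305867-34316674, plus strand) encodes the beta chain of I-E. Its partner H2-Ea, which C57BL/6 mice do not express because of a promoter deletion, was at or near 0 throughout, with at most 0.158 normalized counts in any library. H2-Eb1 was at 7.24, 6.39, 8.41, 12.4 and 7.78 normalized counts in aged epithelium, 2.34, 5.53, 0.833 and 6.23 in young epithelium, 3.97, 24 and 53.7 in aged stroma, and 13.4 and 20.5 in young stroma. It was lower in epithelium in 4 of 5 mice. In mouse O1 the stroma was lower, at 0.548 times the epithelial level. The log2 fold change between layers was -1.87 (SE 0.48, adjusted p = 0.00366, edgeR).

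Cd74 (ENSMUSG00000024610.15, on chromosome 18) was the most abundant of the 10 genes per kilobase of exon in both layers. It was at 24.6, 27.1, 26.4, 45.5 and 37.9 normalized counts in aged epithelium, 13.6, 27, 13.3 and 17.3 in young epithelium, 40.3, 62.4 and 261 in aged stroma, and 47.7 and 77.1 in young stroma. Its log2 fold change was -1.92 (SE 0.41, adjusted p = 0.0008, edgeR). Without mouse O3 the value was -1.17 (adjusted p = 0.00178), a difference that was still called. Per count of H2-Ab1, Cd74 had a median of 1.98 counts in epithelium (range 1.61 to 3.1) and 2.39 in stroma (range 1.59 to 2.67).

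H2-DMa (ENSMUSG00000037649.10, chr17:34119541-34139101, plus strand) was scarce. It was at 1.08, 0.454, 0.787, 1.38 and 0.943 normalized counts in aged epithelium, 0.46, 0.654, 1.25 and 1.04 in young epithelium, 6.13, 1.89 and 2.79 in aged stroma, and 2.37 and 2.01 in young stroma. Every stromal library was above every epithelial library, and the highest was the stroma of O1, in which H2-Eb1 was lowest. In OF5, OM8, YF5 and YM4, however, H2-DMa had only 4, 4, 3 and 3 counts, so the separation there rested on few counts. The log2 fold change was -1.87 (SE 0.42, adjusted p = 0.000822, edgeR). Its exons share 360 bases, or 10.4% of their length, with Brd2 on the opposite strand, and whether strand was used in counting is not given in the sources used here, so its level is uncertain.

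Ciita (ENSMUSG00000022504.10, chr16:10480059-10528418, plus strand) was lower in epithelium as well. It was at 2.53, 1.97, 1.53, 6.2 and 3.54 normalized counts in aged epithelium, 1.49, 2.58, 0 and 1.38 in young epithelium, 3.56, 4.48 and 17.3 in aged stroma, and 5.26 and 5.36 in young stroma. The 0 was in YF5, in which 3 counts would be 1.25 normalized counts, so low expression was not detectable there. The log2 fold change was -1.65 (SE 0.46, adjusted p = 0.00437, edgeR). Without mouse O3 it was -0.97 and no longer called (adjusted p = 0.0674). Across the 14 libraries its log2 normalized counts had a Pearson r of 0.895 with the mean standardized profile of H2-Aa, H2-Ab1, H2-Eb1, Cd74 and H2-DMa, and of 0.824 across the 9 epithelial libraries within code form, that is after the mean of the mice with both layers and the mean of those with epithelium only had been subtracted.

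**Figure D2:**
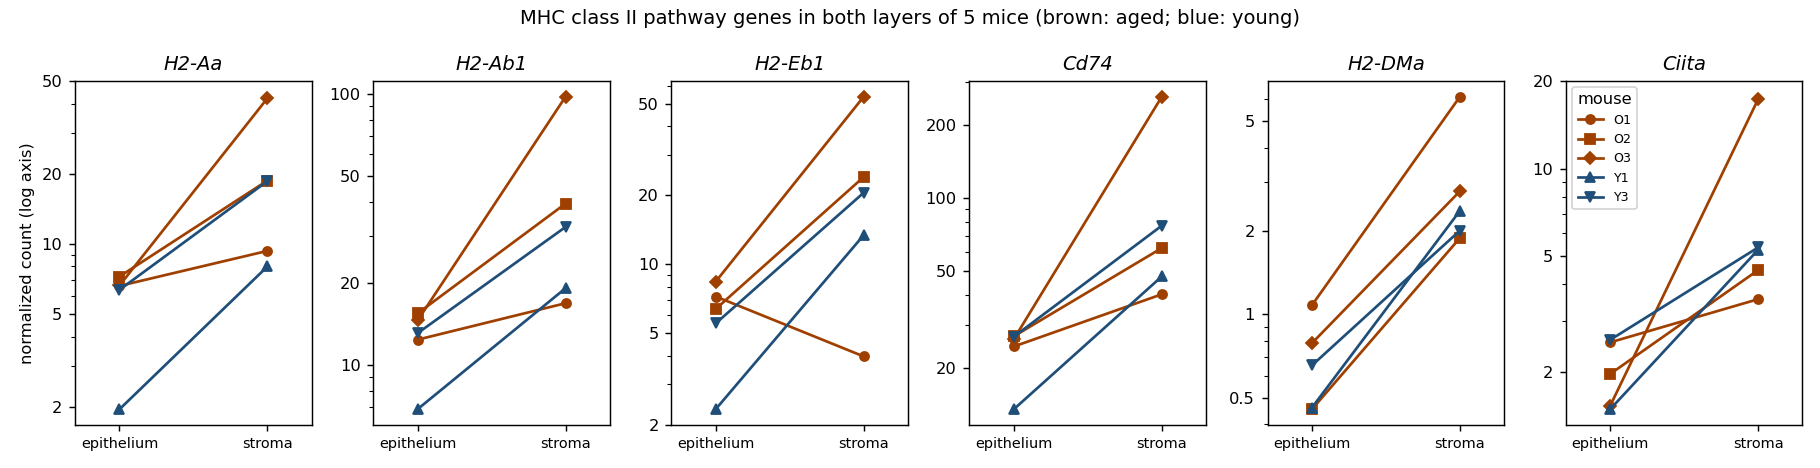
Normalized counts (log y axes) of 6 MHC class II pathway genes in the epithelium and stroma of 5 mice; each line joins the layers of 1 mouse. All lines slope upward from epithelium to stroma except that of H2-Eb1 in mouse O1, where stroma was 0.548 times epithelium, and mouse O3 has the steepest line for Cd74, at 9.87 times.

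The size of the difference between layers varied among mice. In mouse O3, stroma exceeded epithelium 6.37-fold for H2-Aa, 6.68-fold for H2-Ab1, 9.87-fold for Cd74 and 11.3-fold for Ciita. In mouse O1 the same ratios were 1.41, 1.36, 1.64 and 1.41. H2-DMa and Itgax did not share this order, at 5.7-fold and 7.92-fold in O1 and 3.55-fold and 10.1-fold in O3, and Itgax reached 24-fold in Y1 on 2 epithelial counts. Mice O2, Y1 and Y3 lay between these, with ratios of 2.07 to 4.11 for the 4 genes. In the fit with mouse as a block, all 8 genes tested were called in the direction given above.

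Langerin transcripts were few. Cd207 (ENSMUSG00000034783.7, chr6:83671215-83677857, minus strand) had 73 counts in all 9 epithelial libraries together and 18 in the 5 stromal libraries. Its counts were 8, 20, 16, 3 and 2 in aged epithelium and 10, 14, 0 and 0 in young epithelium, or 0.233, 0.606, 0.663, 1.03 and 0.471 and 0.354, 0.458, 0 and 0 normalized counts. It had 0 counts in the stroma of O1, O2 and O3, which allows up to 0.115 to 0.175 normalized counts, and 15 and 3 counts in the stroma of Y1 and Y3. The gene was thus detected in 7 of 9 epithelial libraries and 2 of 5 stromal libraries, with the highest stromal value, 0.774 in Y1, inside the epithelial range. It did not pass the filter for the comparison of layers. With no filter its log2 fold change was 1.51 (SE 1.12, adjusted p = 0.315, edgeR), which does not separate the layers.

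Epcam (ENSMUSG00000045394.9, chr17:87635979-87651129, plus strand) was the gene with a clear epithelial level. It was at 24.9, 26.4, 25.7, 11.7 and 14.4 normalized counts in aged epithelium, 30.5, 28.5, 19.2 and 23.2 in young epithelium, 0, 0.329 and 1.34 in aged stroma, and 0 and 0.473 in young stroma. Every epithelial library was above every stromal library. The log2 fold change was 5.62 (SE 0.59, adjusted p = 4.47e-07, edgeR), and it was 6.60 without mouse O3 and 6.26 with mouse as a block. Its 4291 epithelial counts compare with 73 for Cd207, and it moved between layers with all 7 keratinocyte markers, each called higher in epithelium. Their part in the Epcam level was not tested.

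Itgax (ENSMUSG00000030789.9, chr7:128129547-128150657, plus strand) had the largest difference among the 7 genes that were lower in epithelium. It was at 0.523, 0.575, 0.373, 0 and 0.236 normalized counts in aged epithelium, 0.0708, 0.981, 0 and 0.692 in young epithelium, 4.14, 1.27 and 3.75 in aged stroma, and 1.7 and 2.17 in young stroma. No epithelial library reached the lowest stromal library. Itgax had only 0, 1, 0 and 2 counts in OF5, OM8, YF5 and YM4, however. In those libraries 3 counts equalled 0.707 to 1.25 normalized counts, up to near the lowest stromal value of 1.27. The separation there lay close to the limit of detection. The log2 fold change was -2.56 (SE 0.58, adjusted p = 0.000805, edgeR).

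Flt3 (ENSMUSG00000042817.15, chr5:147330741-147400489, minus strand) was scarce in both layers. It had 34 counts over the epithelial libraries, with 0 in 4 of 9, and was at no more than 0.692 normalized counts in any of them. In stroma it was at 0, 0 and 6.01 normalized counts in aged mice O1, O2 and O3 and 1.14 and 1.42 in young mice. Both the highest and the lowest stromal values thus came from aged mice. The gene did not pass the filter between layers. With no filter its log2 fold change was -2.96 (SE 0.82, adjusted p = 0.00206, edgeR).

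Per kilobase of exon, the median normalized counts in epithelium ran in the order Cd74 (15.7), Epcam (11.3), H2-Ab1 (4.82), H2-Eb1 (3.29), H2-Aa (1.74), Cd207 (0.301), H2-DMa (0.273), Ciita (0.206), Itgax (0.0776) and Flt3 (0.0229). H2-Ab1 was above H2-Eb1, and H2-Aa above Cd207, in 9 of 9 epithelial libraries. The neighbours Cd74 and Epcam (6 of 9 libraries), Cd207 and H2-DMa (6 of 9) and H2-DMa and Ciita (4 of 9) were not ordered alike across libraries. In stroma the order was Cd74 (37.2), H2-Ab1 (12.6), H2-Eb1 (10.5), H2-Aa (4.89), H2-DMa (0.688), Ciita (0.552), Itgax (0.451), Flt3 (0.184), Epcam (0.15) and Cd207 (0), with Cd74 above H2-Ab1 in 5 of 5 libraries.

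The name of the set was checked against Langerhans cell markers. Of Cd207, Epcam, Ly75, Cd24a, Itgax and Cd1d1, 5 were tested between layers. Epcam and Cd24a (log2 fold change 1.76) were higher in epithelium, and Itgax, Ly75 (-1.51) and Cd1d1 (-3.81) were lower. Cd207 was low but detected in all 5 epithelial libraries of the mice with both layers at 8 to 20 counts. Since the class II genes were higher in stroma, where Cd207 was at 0 in 3 of 5 libraries, the set did not vary as one between layers, and the genes are referred to by name.

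Markers of other antigen-presenting cells moved with the class II genes. For the counts of markers called below, the shares over all 16791 genes tested were 30.1% lower and 26.1% higher. Ptprc, which encodes the leukocyte antigen CD45, averaged 3.49 ± 2.33 over the epithelial libraries (SD, n = 9) and 13.2 ± 11.1 over the stromal ones (SD, n = 5), and was lower in epithelium (log2 fold change -2.02, SE 0.44, adjusted p = 0.000724, edgeR). Of 7 leukocyte markers tested, 5 were lower in epithelium, with summed levels of 6.09 to 22.4 normalized counts against 17.8 to 142 in stroma. Of 9 macrophage markers tested, 8 were lower (31.6 to 62.4 against 87.2 to 137), as were 5 of 6 dendritic cell markers (7.5 to 14.8 against 18.7 to 45.4) and all 3 B cell markers tested (0 to 5.86 against 5.95 to 60.2). The dendritic cell list holds Itgax, among the 5 called, and Flt3, and both are also among the 10 genes described here. Of 4 plasma cell markers tested, 3 were lower and 1, Sdc1, was higher (105 to 189 against 34.8 to 2139). Sdc1 made up most of the epithelial sums, at 101 to 188 normalized counts. Igkc, Ighm and Jchain averaged 0.888, 2.22 and 0.157 over the epithelial libraries, against 217, 299 and 23.4 over the stromal ones. No T cell marker passed the filter, and the 6 markers summed to 0 to 2.07 normalized counts in epithelial and 1.44 to 10.9 in stromal libraries. The part of these cells in the class II levels was not tested.

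Stromal tissue markers were also mostly lower in epithelium, where 30.1% of all 16791 genes tested were called lower. All 6 skeletal muscle markers, all 4 adipocyte markers, 4 of 5 endothelial markers, 3 of 6 fibroblast markers and both simple epithelial markers tested, Krt7 and Krt8, were called lower. Fibroblast markers still summed to 280 to 632 normalized counts in epithelium against 415 to 1031 in stroma.

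Class II genes were also set against Ptprc in the same library, a measure chosen after the data were seen. Counts of Cd74 per count of Ptprc had a median of 8.95 in epithelium (range 5.19 to 14.9) and 7.2 in stroma (range 5.85 to 8.96), and those of H2-Ab1 had a median of 4.51 (1.68 to 8.53) and 3.01 (2.36 to 4.54). The layers overlapped for each of H2-Aa, H2-Ab1, H2-Eb1, Cd74 and Ciita. Log2 ratios differed by 0.07 to 0.27, epithelium minus stroma, and no gene passed (exact permutation test over 9 and 5 libraries, two-sided, adjusted p = 0.78 for each of the 5 genes). The 0.07 was that of Ciita, for which YF5 had 0 counts and a log2 ratio of -3.70 set by the 0.5 counts added. Paired by mouse over the 5 mice with both layers, the ratio was higher in epithelium in 4 of 5 mice for each gene, the exception being Y1 for H2-Eb1 and O1 for the other 4. The mean difference was 0.45 to 0.69 on the log2 scale (exact paired permutation test, two-sided, p = 0.125 for each gene, where 5 pairs allow no p below 0.0625). Unpaired over the same mice, the lowest p was that of Ciita (exact permutation test over 5 and 5 libraries, two-sided, unadjusted p = 0.0397, adjusted p = 0.119), and no gene passed. These p-values do not show that the ratios were alike.

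**Figure D3:**
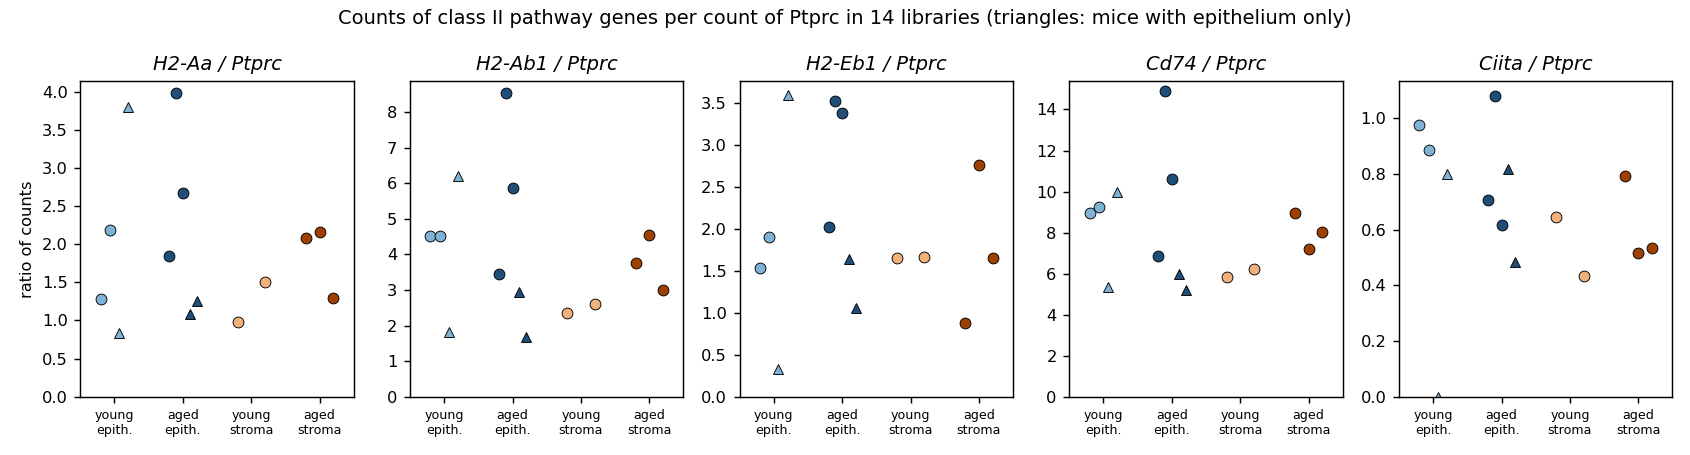
Counts of 5 class II pathway genes divided by counts of Ptprc in the same library (y axes, linear) in young and aged epithelium and stroma; each point is 1 library and triangles are mice with epithelium only. The layers overlap for each gene, as for Cd74 with 5.19 to 14.9 in epithelium and 5.85 to 8.96 in stroma.

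Other genes of the class II pathway differed in direction between layers. Of 17 listed genes found in the counts, 12 were tested, of which 4 were lower and 2 higher in epithelium. Their median log2 fold change was 0.00. For this list and those below, the shares over all 16791 genes tested were 30.1% lower and 26.1% higher. The counts of this list thus do not set it apart from genes at large. The lower genes were Ctss and Lgmn, which encode proteases of the endosome (-2.01 and -1.72), H2-DMb1, the partner chain of H2-DMa (-1.53), and Marchf1, a ligase that turns over class II molecules (-1.52). H2-DMb1 is nearly identical to H2-DMb2, so that reads may be split between them. The higher genes were Ifi30, which encodes a reductase of endosomal antigen processing (1.31, adjusted p = 0.00589, edgeR), and Rfx5, a subunit of the factor on the X box (0.96, adjusted p = 0.0456). The other RFX subunits and the NF-Y subunits did not pass, with Rfxank at 0.51, Rfxap at -0.17, Nfya at 0.18, Nfyb at -0.46 and Nfyc at 0.47.

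Genes upstream of Ciita in the interferon-gamma response were mostly lower in epithelium. Of 7 tested, 5 were called lower and none higher, of which Irf1 (-1.41), Jak2 (-1.10) and Ifngr2 (-0.91) had the largest differences. Of 9 MHC class I genes tested, 6 were lower, among them the immunoproteasome genes Psmb8 (-2.97) and Psmb9 (-2.74), B2m (-2.07) and Nlrc5, the class I counterpart of Ciita (-1.86). H2-D1 was at 0.12 (adjusted p = 0.724, edgeR) and Tapbp at 0.30 (adjusted p = 0.219).

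Of 18 tested genes for Langerhans cell growth and residence, 2 were higher and 12 lower in epithelium. Cdh1, which encodes the E-cadherin that anchors Langerhans cells to keratinocytes, was higher (5.40), as was Ahr, the aryl hydrocarbon receptor (1.73). The lower genes with the largest changes were Irf4 (-2.57) and Itgb8, an activator of TGF-beta (-2.53). Il34, the keratinocyte ligand that maintains Langerhans cells, averaged 2.8 ± 0.824 normalized counts over the epithelial libraries (SD, n = 9) and 1.27 ± 1.08 over the stromal ones (SD, n = 5), and the log2 fold change of 1.11 did not pass (SE 0.57, adjusted p = 0.107, edgeR). Of 5 tested genes for costimulation and maturation, Fscn1 was higher (0.85), and Cd83 and Cd86 were lower (-1.94 each).

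Age was compared within each layer. In epithelium, none of the 9 genes tested was called (edgeR, adjusted p rounding to 1 for each), and 0.0126% of all 15859 genes tested were called, 2 in number. DESeq2 called 28 of all genes and none of the 9. At an unadjusted p under 0.05, 4 of the 9 genes were higher in aged epithelium, while 1.44% of all genes tested were. These were H2-Eb1 (log2 fold change 1.02, SE 0.35, unadjusted p = 0.0125, edgeR), Cd74 (0.72, SE 0.25, unadjusted p = 0.0133), H2-Ab1 (0.67, SE 0.27, unadjusted p = 0.0244) and H2-Aa (0.77, SE 0.33, unadjusted p = 0.0335). Epcam was lower at the same threshold (-0.38, SE 0.14, unadjusted p = 0.0141, edgeR). The genes were chosen with earlier results of these data known, and genes of a shared pathway in the same libraries are not independent. The 2 shares are therefore no test of enrichment.

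For the class II chains, the aged libraries lay at the upper end of the young range or above it. H2-Eb1 and H2-Aa did not overlap between ages, as 0.883% of all genes tested did not with aged higher. The gap was narrow, since the lowest aged and highest young libraries were at 6.39 and 6.23 normalized counts for H2-Eb1 and at 6.6 and 6.58 for H2-Aa. Cd74 averaged 32.3 ± 9.04 over the aged libraries (SD, n = 5) and 17.8 ± 6.37 over the young ones (SD, n = 4), and young mouse Y3, at 27, lay within the aged range. The other values by age were 0.65 for Cd207, 0.54 for Ciita, 0.32 for H2-DMa and -0.27 for Itgax on the log2 scale, with SE of 0.66, 0.44, 0.49 and 0.74.

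These age values depended on the libraries and the filter. With 1 mouse left out, H2-Aa ran from 0.42 without Y1 to 1.42 without Y3, and H2-Eb1 from 0.77 to 1.54 without the same mice. With no filter, Cd74 and H2-Eb1 were called (adjusted p = 0.028 and 0.0273, edgeR). Cd74 was also called within the 4 mice with epithelium only (log2 fold change 1.44, adjusted p = 0.0143) and without mouse Y3 (1.16, adjusted p = 0.0183), and neither H2-Eb1 nor any other of the 9 genes was called in those fits. Ptprc had a log2 fold change of 0.67 (SE 0.33, unadjusted p = 0.0588, edgeR) with age in epithelium. Per count of Ptprc, the mean log2 ratio differed between ages, aged minus young, by 0.60 for H2-Eb1, 0.57 for Ciita, 0.18 for H2-Aa, 0.03 for Cd74 and 0.02 for H2-Ab1. For Ciita the median ratio was lower in aged (0.707) than in young libraries (0.844), 1 of which had 0 counts of the gene. The ranges overlapped for each gene, and none passed (exact permutation test over 5 and 4 libraries, two-sided, adjusted p = 0.984 for each of the 5 genes).

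Other markers varied with age in the same epithelial libraries, and none was called. Ptprc had the highest value of the 7 leukocyte markers, whose median log2 fold change was 0.10, with Tyrobp at 0.33, Laptm5 at 0.23, Coro1a at 0.10, Cd53 at 0.09, Cd52 at 0.02 and Fcer1g at -0.02. The immunoglobulin genes Igkc and Ighm were higher in aged epithelium at an unadjusted p under 0.05 (0.00457 and 0.00486, edgeR), with Igkc at 0.0909 to 4.82 normalized counts in aged and 0 to 0.0981 in young libraries; both genes overlapped between ages. All 6 fibroblast markers had negative values, 3 of them at an unadjusted p under 0.05, among them Col3a1 (-0.70, unadjusted p = 0.000136, adjusted p = 0.18, edgeR) and Col1a1 (-0.62, unadjusted p = 0.0011, adjusted p = 0.622), for which the ages did not overlap. All 7 keratinocyte markers had negative values, from -0.35 for Krt14 to -0.09 for Krtdap, none at an unadjusted p under 0.05. The part of these cells in the age values was not tested.

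**Figure D4:**
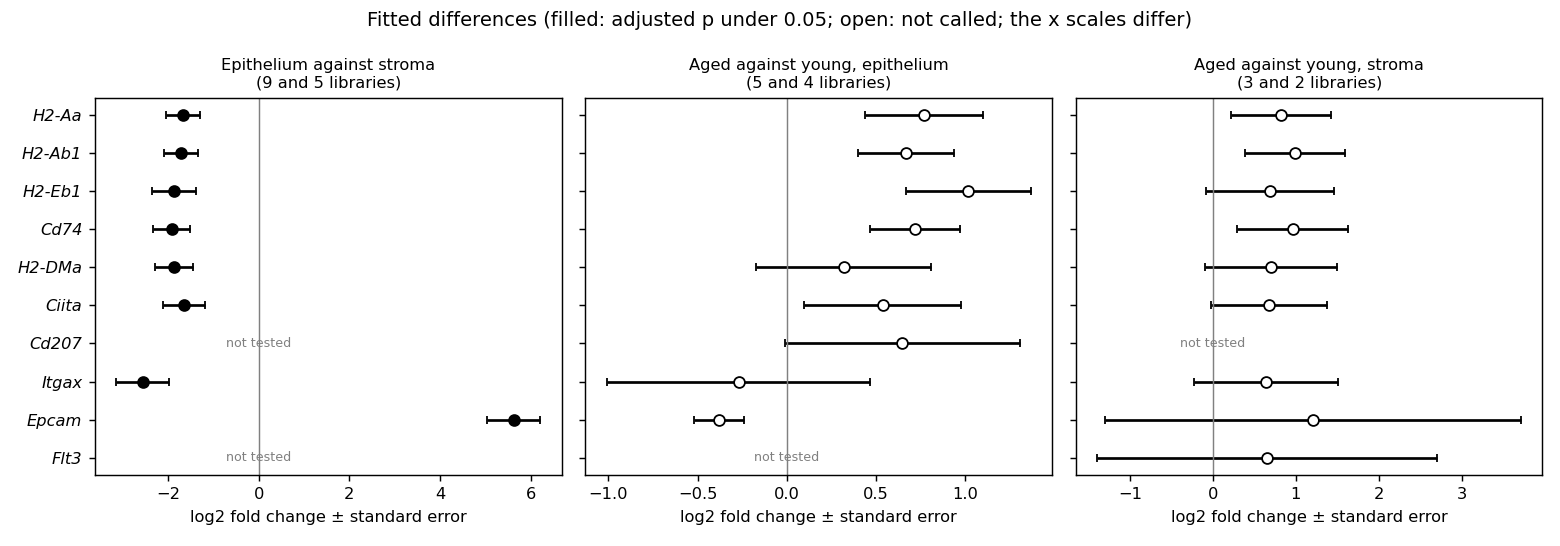
Log2 fold changes with standard errors (x axes, scales differ) of the 10 genes between layers and between ages in each layer, from edgeR; filled points passed an adjusted p under 0.05. All 8 genes tested between layers are filled, and no gene tested by age is.

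In stroma, none of the 9 genes tested was called by age, and 0% of 21323 genes tested were (edgeR); at an unadjusted p under 0.05 there were 776 of all genes and none of the 9, and DESeq2 called 2 of all genes and none of the 9. All 9 fitted values were positive, from 0.64 for Itgax to 1.21 for Epcam. For 5 of them the sign rested on mouse O3. Without it, the values were -0.29 for Cd74, -0.41 for Ciita, -0.27 for H2-Eb1 and -0.49 for Epcam, and Flt3 was then at 0 in both aged libraries. The stroma of O3 also held the highest summed markers of leukocytes (142 normalized counts against 17.8 to 38.3) and B cells (60.2 against 5.95 to 17.7), and their part in its class II levels was not tested.

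The interaction of age and layer was tested in the 5 mice with both layers. None of the 10 genes was called, as 0% of 22771 genes tested were (edgeR), while 979 genes had an unadjusted p under 0.05 and DESeq2 called 62, none of them among the 10. Cd207 alone of the 10 had an unadjusted p under 0.05 (0.0161, edgeR). It was at 0 in the 3 aged stromal libraries and at 0.774 and 0.118 in the 2 young ones, while in epithelium of the same mice it was at 0.233 to 0.663 in aged and at 0.354 and 0.458 in young. No gene of the pathway and marker lists was called by age in either layer or in the interaction.

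Genes whose levels ran most like the class II profile across the 14 libraries were Tent5c (r = 0.957), Gbp3 (0.954), Stoml1 (0.953), Tshz2 (0.953) and Ifit3 (0.952), among 12290 genes. Ptprc had an r of 0.909. Across the 9 epithelial libraries within code form they were Tshz2 (0.962), Ttyh1 (0.960), Col6a5 (0.958), Ulk2 (0.943) and Tab3 (0.938). Those most like Cd207 over the 14 libraries were Fkbp15 (0.884), Gmeb1 (0.831), Avl9 (0.830), Haus8 (0.816) and Zfp954 (0.807). The libraries share layer, depth and mice, so that these values describe likeness in level only.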

How the data were processed

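Poly(A)-enriched RNA of 14 esophageal libraries was sequenced. The authors aligned reads to GRCm38.p6 from GENCODE with Rsubread and deposited whole-number counts per gene from featureCounts, not normalized. The submitters' processing notes name bcl2fastq and GRCm38. The annotation release, strand setting and handling of multi-mapping reads are not given in the sources used here. Labels gave the layer, age and mouse, and no library was left out. Total counts per library ranged from 8217516 to 21867101, and limits from counts cover counting error only. P-values measure the spread between libraries. Within a layer each library came from a different mouse. The main tests of layer, over all 14 libraries, and of the interaction treated both layers of a mouse as independent.

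The main test was edgeR's quasi-likelihood test (edgeR 4.0.16, R 4.3.3, TMM scaling, filterByExpr with a minimum count of 10, robust glmQLFit), with Benjamini-Hochberg adjustment over all genes tested and a threshold of 0.05. Layers were compared over all 14 libraries without a covariate. Age in epithelium was fitted with a term for the form of the mouse code, which separates the 4 mice with epithelium only. Age in stroma used 5 libraries, and the interaction the 10 libraries of 5 mice. Ratios to Ptprc used log2 ratios with 0.5 counts added and an exact permutation test over libraries (scipy 1.17.1), adjusted over 5 genes, or paired by mouse, a form added after the data were seen. Exon lengths and positions came from GENCODE M21 of GRCm38. The procedure was tested on simulated data.

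Epithelium and stroma were taken as 1 mouse where the codes differ only in the last letter, as in O1E and O1S. This pairing is read from the codes. Deviations from group means correlated only weakly, at 0.052 to 0.122, which cannot show it. The values of Y1 and Y3, the only young mice with both layers, are equal by construction. Epithelial libraries with the same number in both ages correlated at 0.302, 0.318 and 0.214 and were treated as paired in an alternative fit. Deviations were taken from age group means over both forms of mouse code, and the libraries of each pair share a form. These correlations therefore cannot show pairing by number. No replicates were duplicates (lowest chi-square per degree of freedom 9.93 over 20 pairs). Alternatives were DESeq2 1.42.0, RLE size factors, no filter, a stricter filter, ribosomal, repeat and mitochondrial genes left out, other covariates and subsets, replicate blocks, and each mouse left out. The named genes are the 10 genes, up to 4 called genes of each list by size of change (others are named by role after their values were seen), and the 5 genes most like the class II profile or Cd207. The 10 genes and the lists were chosen with earlier results of these data known. The values of 1 listed gene are not reported here.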

Additional observations from a re-analysis of the deposited data

Results flagged for a closer look

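In 3 of 40 groups of 4 to 10 libraries, 1 library lay far from the others by Dixon's criterion, which chance meets in about 1 of 20 groups. Ciita was at 0 normalized counts in the epithelium of YF5 and at 1.38 to 6.2 in the other 8 epithelial libraries. YF5 is 1 of the libraries with most counts in ribosomal RNA, and 3 counts there equal 1.25 normalized counts. Ciita was at 17.3 normalized counts in the stroma of O3 and at 3.56 to 5.36 in the other 4 stromal libraries. Cd207 was at 0.774 normalized counts (15 counts) in the stroma of Y1 and at 0 to 0.118 in the others.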

How the results depend on the processing

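Between layers, the number of the 10 genes called was 8 with DESeq2, with RLE size factors, without the mice that have epithelium only and with mouse as a replicate block, 9 with no filter and with ribosomal, repeat and mitochondrial genes left out (Flt3 added), and 2 of 2 tested with at least 10 counts in every library. It was 7 to 8 with 1 mouse left out, as Ciita lost its call without O3 (-0.97, adjusted p = 0.0674). By age in epithelium the number was 2 with no filter, 1 in the 4 mice with epithelium only and 0 to 1 with 1 mouse left out, against 0. Blocks by mouse or replicate number changed no call, and the replicate block for age in epithelium left 0 of 9 genes called. In stroma the 2 pairs of equal number correlated at 0.031 and 0.042 and share only a number, and the block gave 0 calls.

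Values that turned sign, none of them called, were as follows. By age in epithelium, Ciita was at -0.03 in the 5 mice with both layers and Itgax at 0.32 with the replicate block and 1.53 without Y3 (lowest -1.07 without 1 mouse). By age in stroma, with the replicate block H2-Eb1 was at -0.17 and Flt3 at -1.07, and with 1 mouse left out H2-Eb1 ran from -0.27 to 1.2, Cd74 from -0.29 to 1.37, Ciita from -0.41 to 1.04, Epcam from -0.49 to 6.62 and Flt3 from -7.79 to 1.23, the last against libraries at 0. In the interaction, H2-Eb1 was at -0.07 with no filter, and with the mouse as a replicate block H2-Aa was at 0.28, Itgax at 0.09 and Flt3 at 2.95. With 1 mouse left out the interaction ran from -0.59 to 0.68 for H2-Aa, -0.95 to 0.38 for H2-Ab1, -0.41 to 1.08 for H2-Eb1, -1.1 to 0.66 for Cd74, -0.58 to 0.17 for H2-DMa, -1.38 to 0.57 for Ciita, -1.46 to 1.91 for Itgax, -7.1 to 0.29 for Epcam and -2.81 to 7.51 for Flt3. The causes were not tested. Depth limits Cd207, Flt3 and Itgax most, with 0 counts in 2 to 4 of 9 epithelial libraries.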
